A study of Mus musculus with 6 samples.

Results

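Genes of the major histocompatibility complex (MHC) and of antigen presentation were followed in the spleens of BALB/c mice exposed to lead (Pb) during development. They were taken as every probe whose single gene symbol begins with H2-, or is one of 16 named genes of the pathway, and which lies in array rows 1 to 401. This gave 49 probes for 42 genes, out of 35587 probes and 18069 single gene symbols on the array. B2m and Pdia3 had no probe of their own, and 9 probes that carry several of these symbols were left out. The Pb group was 3 female BALB/c mice that met Pb at 0.1 mM from gestation day 8 onward, and the control group was 3 female BALB/c mice without that exposure. All were sampled at postnatal day 21, with total RNA of the spleen labelled in 1 colour (Cy5) on a CodeLink mouse whole genome array for each animal. The labels do not name littermates or the route of the lead.

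MHC class I molecules sit on nearly every nucleated cell and show peptides from the cytosol to CD8 T cells. Class II molecules sit mainly on B cells, dendritic cells and macrophages, all abundant in spleen, and show peptides from taken-up protein to CD4 T cells. Class II genes are switched on together by the transactivator CIITA, which docks on proteins bound to the X and Y boxes of their promoters, and NLRC5 does the same for class I. BALB/c mice carry the d haplotype of the MHC, whereas the reference genome is from C57BL/6J, which carries b.

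The promoter stretches below are shown because these shared elements are why the genes are usually read as 1 programme. They come from RefSeq on GRCm38.p6, so they are C57BL/6J and not BALB/c sequence, and they run 5′ to 3′ on the strand of the gene. Capitals mark 4 motifs searched on both strands in the 250 bases before each start: the Y box CTGATTGG, the X box core GCAACNGAT, the kappa B site GGGGATTCC and the interferon response motif TTTCACTTC. None of the marked motifs overlap. The first line lies at chr17:34287852-34287889 (minus strand), the second at chr17:34305761-34305827 (plus), the third at chr17:34000414-34000473 (minus) and the last at chr17:35262908-35263063 (plus).
H2-Aa: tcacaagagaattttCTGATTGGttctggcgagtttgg
H2-Eb1: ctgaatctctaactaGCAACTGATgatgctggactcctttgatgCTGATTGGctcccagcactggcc
H2-K1: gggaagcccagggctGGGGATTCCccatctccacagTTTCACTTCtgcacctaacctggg
H2-D1: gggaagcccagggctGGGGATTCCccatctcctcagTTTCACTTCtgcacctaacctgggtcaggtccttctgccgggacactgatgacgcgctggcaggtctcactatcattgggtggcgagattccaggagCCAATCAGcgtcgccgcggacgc
H2-D1 holds the Y box on the opposite strand, as CCAATCAG. Of the 42 genes, 28 had a promoter in the table. The Y box letters were found in 10 of these 28, 4 of them class II genes (H2-Aa, H2-Eb1, H2-Eb2 and H2-Oa), and in 4.43% of all 27025 genes. The X box core was found in H2-Eb1 and H2-Eb2, and in 0.403% of all genes. The kappa B letters were found in H2-K1 and H2-D1, and in 0.255% of all genes. The interferon response motif was found in 5 of the 28, all of them class I genes (H2-K1, H2-D1, H2-M3, H2-Q4 and H2-Q10), and in 0.477% of all genes.

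The deposited values of Pb replicate 3 bore no relation to the probes (r of 0.045 to 0.048 with the controls across probes, against 0.94 to 0.95 between controls), so gene values rest on 5 arrays, 2 Pb and 3 control. Pb replicate 2 was dim in some array rows and bright in others, and all arrays were corrected for position and level. Its r with the controls was 0.66 to 0.67 before that correction and 0.92 after it, a gain that is partly built in because the correction removes deviations from a mean that includes the controls. Values are log2 intensities after correction, on which the median probe of an array is close to 0, and a difference is Pb minus control. Probes with a mean at or above the 30th percentile were tested with limma, adjusted by Benjamini-Hochberg over all 24464 such probes. The spleen transcription factors Tlx1 and Nkx2-5 and all 11 measured B cell markers were among them. Precision is limited by the number of arrays, and detection calls were not used. In whole spleen, fewer cells of a type and less RNA per cell cannot be told apart.

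**Figure D1:**
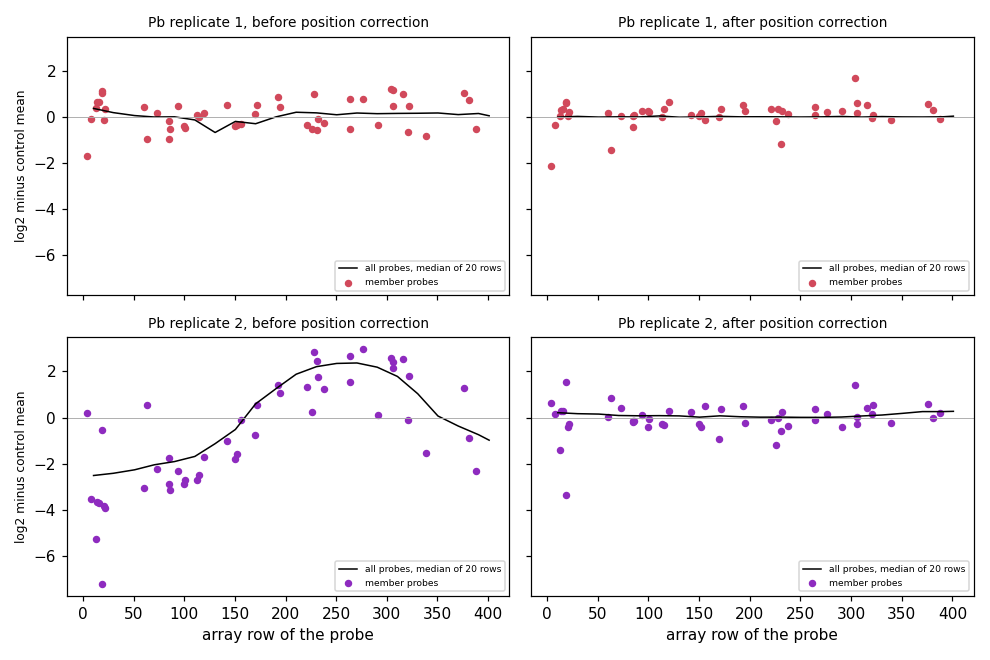
Log2 intensity minus the mean of the 3 controls, by array row of the probe, for Pb replicate 1 (top) and Pb replicate 2 (bottom), before (left) and after (right) position correction. Coloured points are the 49 MHC and antigen presentation probes and the black line is the median of all probes in steps of 20 rows. In Pb replicate 2 the members follow the line from below 0 in low rows to above 0 near row 260 before correction, while most lie close to 0 after it, with single members further off in low and in high rows, such as H2-Q10 in row 19 and the H2-Q8 probe 226009 in row 226.

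The position of a probe mattered for these genes. Before correction, the 29 members in rows below 200 had a median deviation from the controls of -2.32 in Pb replicate 2, and the 20 members in rows from 200 upward had one of 1.64. After correction these medians were -0.06 and 0.01. In Pb replicate 1 the same medians were 0.12 and 0.19 before correction and 0.15 and 0.22 after it. Position was not fully removed from Pb replicate 2. After correction the median deviation of all probes in that array was 0.21 in rows 1 to 20 and 0.26 in rows 381 to 400. It was 0.0081 in rows 261 to 280.

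No MHC or antigen presentation gene differed between Pb and control spleens past the adjusted threshold. Of the 49 probes, 43 passed the filter, and 0 of them were called in limma, where 0.0613% of all probes tested were (15 of 24464, all of them higher in Pb). The lowest adjusted p among members was 0.622. At an unadjusted p under 0.05, 3 members were higher in Pb and 0 were lower, where the background was 3.88% higher and 3.30% lower of all probes tested. Both Pb values exceeded every control value for 10 of the 43 (23.3%), against a background of 14.0% of all probes tested, and lay under every control value for 2 (4.65%), against 12.7%. Over all 49 members these counts were 10 above and 3 below, but 3 above and 7 below with a surface that ignores level. Together these last were 20.4% of members, against 30.2% of all probes. Without position correction the counts were 11 above and 9 below (40.8% together, against 37.2% of all probes). With the main correction 10 tested probes lay above. Of these, 4 (Cd74, H2-Q4, Erap1 and the H2-Q8 probe 120097) were lower in Pb on average in both of the other settings.

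Of the 43 probes 25 were higher and 18 lower in Pb, where 13168 of all probes tested were higher and 11296 lower. The median difference of the 43 probes was 0.06 (quartiles -0.11 and 0.21), against 0.03 (quartiles -0.19 and 0.25) for all probes tested. The sign of the median of members changed with the processing. With a surface that ignores level the median of members was -0.33 and that of all probes -0.21. Without position correction they were -0.85 and -0.14, and without Pb replicate 1 they were -0.063 and 0.07. The 95% interval lay within a fold of 2 in either direction for 36 of the 43 members (83.7%), and for 70.0% of all probes tested. These intervals are not adjusted for the number of probes. Exocrine pancreas transcripts moved with the groups: all 13 measured markers of that list were higher in both Pb arrays than in all controls, 10 of them called, with a median difference of 3.47. Their part in the values below was not tested. The log2 of the summed corrected intensities of that list was 7.44 and 7.94 in the Pb arrays, and 4.26, 4.20 and 4.12 in the controls.

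**Figure D2:**
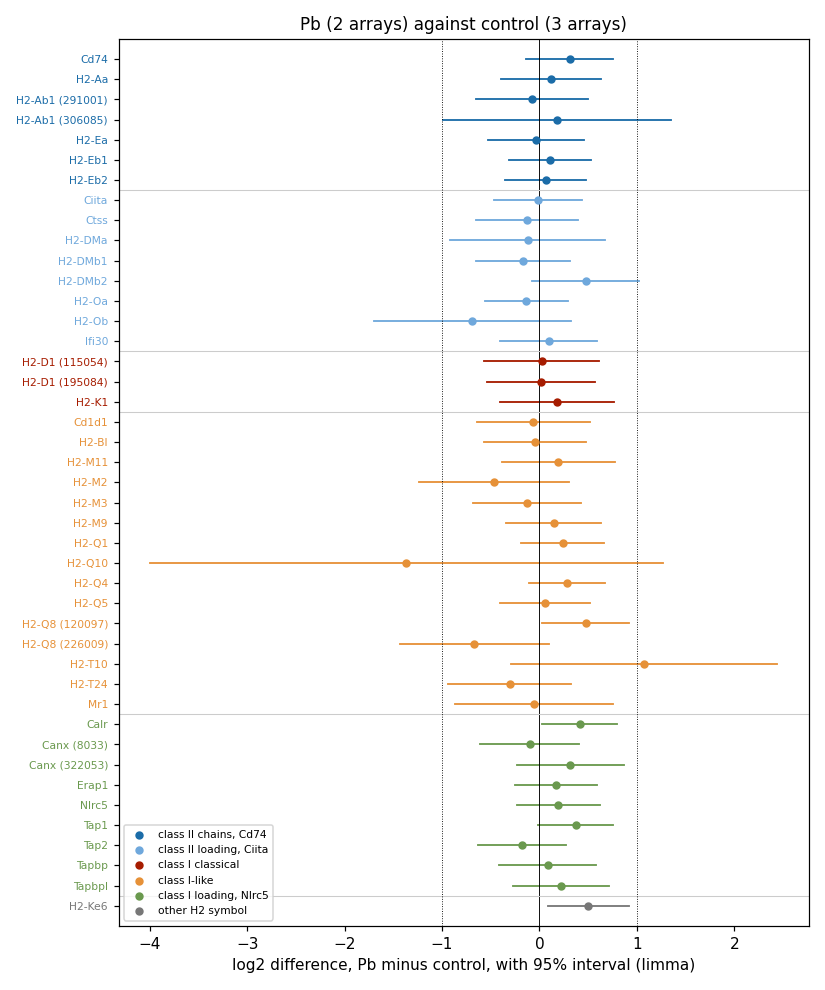
Log2 difference, Pb (2 arrays) minus control (3 arrays), of the 43 tested member probes, with 95% intervals from limma; colours are roles and dotted lines mark a fold of 2 either way. All intervals but those of H2-Ke6, Calr and the H2-Q8 probe 120097 include 0, and those of H2-Q10, H2-T10 and H2-Ob are among the widest.

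The class II chains form the 2 mouse class II molecules, I-A (H2-Aa with H2-Ab1) and I-E (H2-Ea with H2-Eb1). H2-Aa, whose Y box is printed above, was at 8.50 and 8.07 in Pb replicates 1 and 2, against 7.99, 8.31 and 8.21 in controls 1 to 3. The main H2-Ab1 probe was at 8.28 and 7.63 in Pb, against 7.99, 8.10 and 7.999 in controls. For both genes Pb replicate 1 was the highest of the 5 arrays, and the groups overlapped. The differences were 0.12 (95% interval -0.40 to 0.64) for H2-Aa and -0.08 (-0.65 to 0.49) for H2-Ab1. A second H2-Ab1 probe, which lay near the array median and ran from -0.88 to 0.39 within the controls, differed by 0.18 (-0.99 to 1.35).

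H2-Ea encodes the alpha chain of I-E. The reference table lists it as a transcribed pseudogene, since C57BL/6 mice carry a broken copy, while BALB/c mice have a working one. It was well above the array median in every array, at 6.36 and 6.11 in Pb and 6.07, 6.49 and 6.25 in controls. H2-Eb1, its partner, was at 7.14 and 6.97 in Pb, against 6.87, 6.92 and 7.07 in controls. The differences were -0.04 (95% interval -0.53 to 0.46) and 0.11 (-0.31 to 0.52), and both genes overlapped between groups. H2-Eb2, a further beta chain gene, was at 1.44 and 1.66 in Pb and 1.42, 1.50 and 1.53 in controls, a difference of 0.06 (-0.35 to 0.48).

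For these 5 chain genes, without the second H2-Ab1 probe, the 5 intervals together reached no further than 1.57-fold lower and 1.55-fold higher in Pb. Those bounds hold for the main correction only. With a surface that ignores level, H2-Aa, H2-Ab1, H2-Ea, H2-Eb1 and H2-Eb2 differed by -0.04, -0.22, -0.65, -0.20 and -0.04. Without position correction these differences were 0.51, -0.12, -1.81, 1.43 and -0.36, so some lay outside the intervals given. Adjusted p lay between 0.841 and 0.959 (limma). H2-Eb1 and H2-Eb2, which hold both the X box core and the Y box letters, differed by 0.11 and 0.06. H2-Aa, which holds the Y box letters alone, differed by 0.12. H2-Oa, a class II gene described below that also holds the Y box letters alone, differed by -0.14.

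Cd74, the invariant chain that occupies the class II groove until loading, was at 6.95 and 6.91 in Pb, against 6.41, 6.72 and 6.73 in controls. Both Pb values lay above all controls, by a mean of 0.31 (SE 0.18, 95% interval -0.14 to 0.76, limma adjusted p = 0.624), which did not pass. The direction turned with the correction: the difference was -0.55 with a surface that ignores level and -1.52 without position correction. The deposited intensity behind the value of Pb replicate 2 was 7.14, against 78.6, 104 and 97.7 in the controls. The probe lies in array row 16, in the part where that array was dim. After correction, all probes in rows 1 to 20 still had a median deviation of 0.21 in Pb replicate 2.

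Ciita and the 7 genes that trim and load class II molecules were tested with 1 probe each. Of these 7 loading genes 0 passed, 2 higher and 5 lower. Ciita, the master regulator of class II transcription, was at 4.80 and 4.58 in Pb and at 4.65, 4.87 and 4.59 in controls, a difference of -0.02 (95% interval -0.47 to 0.44). Ctss, the protease that trims the invariant chain, was at 7.47 and 6.96 in Pb and at 7.36, 7.45 and 7.22 in controls. Ifi30, a reductase that opens disulfide bonds of antigens, was at 5.87 and 5.75 in Pb and at 5.44, 5.87 and 5.84 in controls. In all 3 genes the groups overlapped.

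H2-DM, which exchanges the invariant chain fragment for peptide, is made of an alpha chain and 1 of 2 beta chains. H2-DMb2 was at 3.48 and 3.36 in Pb, against 3.20, 3.02 and 2.62 in controls, so that both Pb arrays lay above, by 0.47 (SE 0.22, 95% interval -0.07 to 1.02, limma adjusted p = 0.622). H2-DMb1 overlapped between the groups, at 5.92 and 5.48 in Pb and 5.79, 5.89 and 5.93 in controls. H2-DMa spread widely within the controls, at 3.88, 4.55 and 3.54, with 4.03 and 3.71 in Pb.

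H2-O restrains H2-DM, mainly in B cells. H2-Oa was at 4.08 and 3.80 in Pb and 4.12, 4.07 and 4.03 in controls. H2-Ob was at 1.71 and 0.28 in Pb, against 1.76, 1.69 and 1.60 in controls. Pb replicate 1 lay within the controls, and the difference of -0.69 (SE 0.41, limma adjusted p = 0.625) came from Pb replicate 2 alone. There the deposited intensity was 0.079, against 3.26, 3.30 and 2.58 in controls, in array row 13 of the dim part. Without Pb replicate 1, which leaves that array as the lone Pb array, H2-Ob was called lower, by -1.41 (limma adjusted p = 0.014, against 0.35 to 0.98 over the other alternatives), where 5.98% of all probes were called lower.

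**Figure D3:**
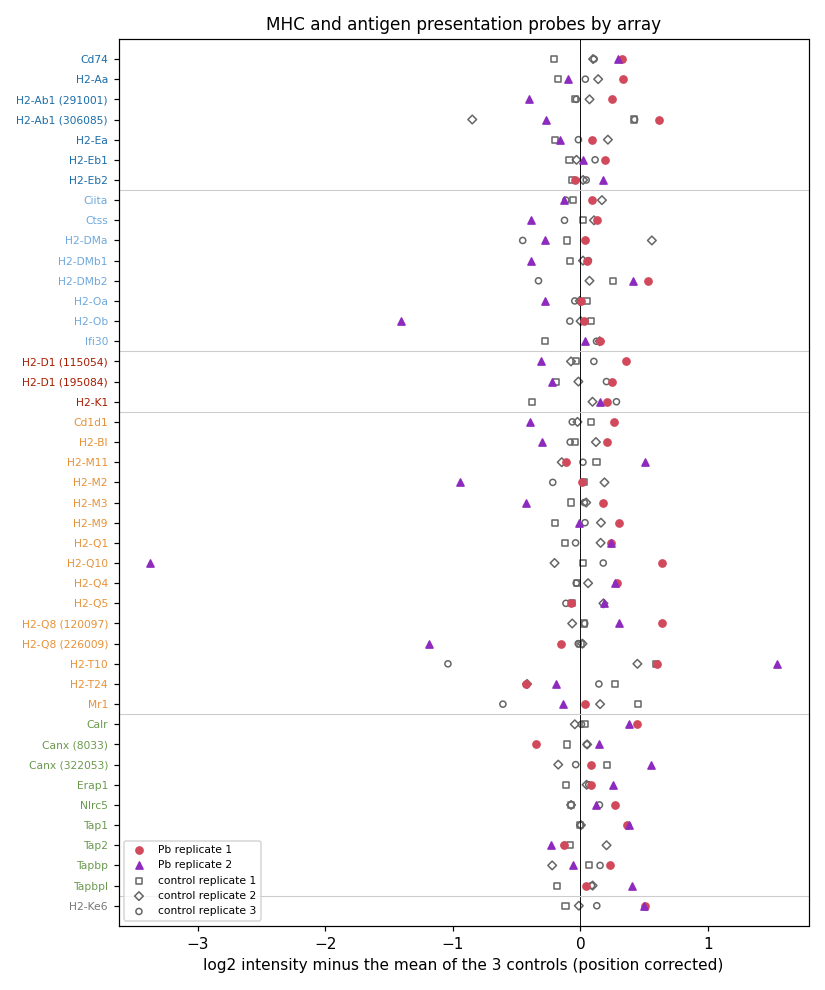
Position-corrected log2 intensity of the 43 tested member probes in each of the 5 arrays, as the deviation from the mean of the 3 controls; filled symbols are Pb arrays, open symbols controls, and lines part the roles in the order class II chains, class II loading with Ciita, classical class I, class I-like, class I loading with Nlrc5 and H2-Ke6. Pb replicate 2 stands far below the other arrays for H2-Q10 and H2-Ob, while both Pb arrays lie side by side above the controls for Tap1, Calr and H2-Ke6.

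The median gap between both Pb arrays was 0.28 for class II, 0.34 for class I and 0.37 for all probes tested. Pb replicate 1 was higher than Pb replicate 2 for 14 of the 15 class II probes, H2-Eb2 being the exception. That order held for 17 of 27 class I probes and for 45.8% of all probes tested. Within class I it held for 3 of 3 classical, 10 of 15 class I-like and 4 of 9 loading probes with Nlrc5. The order was therefore not particular to class II. Among probes with a mean log2 level of at least 4 the order held for 10 of 10 in class II and for 48.7% of all 2698. The median deviation of the 7 probes of class II chains and Cd74 was 0.25 in Pb replicate 1 and -0.10 in Pb replicate 2, against -0.08, 0.07 and 0.05 in controls 1 to 3. For the 8 probes of class II loading and Ciita it was 0.07 and -0.28 in Pb, against -0.02, 0.09 and -0.10 in controls. The order was seen in 14 of 15 probes with each of 3 other surfaces or floors and with both other scalings, but with a surface that ignores level 69.1% of all probes had it as well, and before position correction 7 of 15 did. Lists of cell markers also differed between the Pb arrays. Pb replicate 1 was the higher for 7 of 7 tested neutrophil markers, with a median deviation of 0.81 in Pb replicate 1 and 0.02 in Pb replicate 2, against 0.30, -0.09 and -0.21 in controls. It was the higher for 8 of 11 T cell, 5 of 6 stroma, 6 of 9 dendritic cell, 6 of 11 B cell, 3 of 8 macrophage and 0 of 6 erythroid markers. B cell markers had a median deviation of 0.19 and 0.01 in Pb replicates 1 and 2, against -0.07, 0.12 and 0.02 in controls. Dendritic cell markers were at -0.01 and -0.04 in Pb, against -0.05, 0.07 and -0.02 in controls, and macrophage markers at -0.06 and 0.02 in Pb, against 0.10, -0.09 and -0.05 in controls. The part of these cell types in the class II values was not tested.

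**Figure D4:**
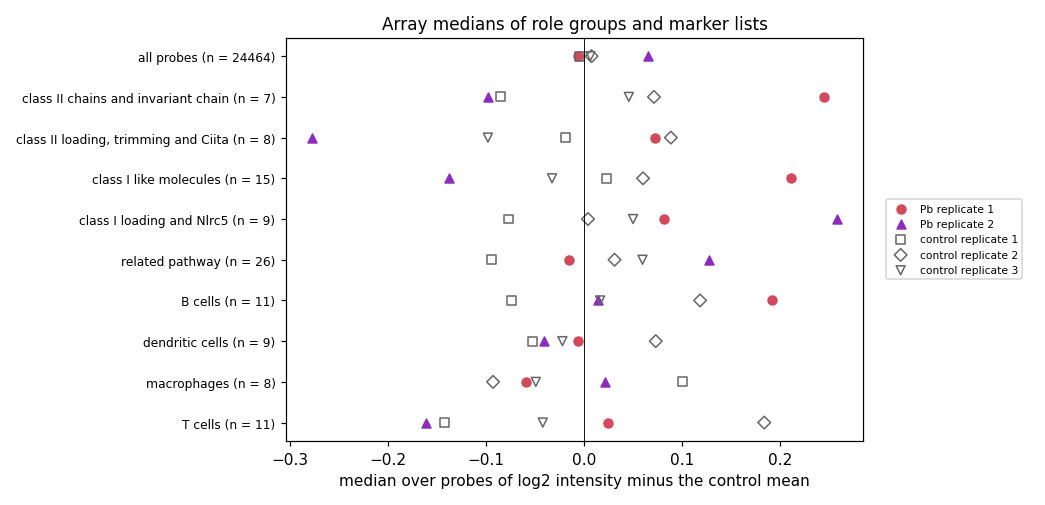
Median over tested probes of the deviation from the control mean, for each array, in 4 role groups, all probes and 5 lists of other genes (n is the number of probes). In both class II groups Pb replicate 2 is the lowest array, at -0.10 and -0.28, while Pb replicate 1 is at 0.25 and 0.07. In the class I-like group Pb replicate 2 is also the lowest, at -0.14, with Pb replicate 1 at 0.21.

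Classical class I heavy chains were tested with 3 probes, and 0 passed. H2-D1, whose promoter holds the kappa B, interferon response and Y box letters, had 2 probes. One (115054) was at 7.73 and 7.06 in Pb and 7.34, 7.30 and 7.48 in controls, and the other (195084) was at 7.74 and 7.26 in Pb and 7.30, 7.47 and 7.69 in controls. Both placed Pb replicate 1 highest and Pb replicate 2 lowest of the 5 arrays, and their differences were 0.02 (95% interval -0.57 to 0.62) and 0.01 (-0.54 to 0.57). The single H2-K1 probe lay below the array median in all 5 arrays, at -0.85 and -0.90 in Pb and -1.43, -0.96 and -0.77 in controls, with a difference of 0.18 (-0.40 to 0.76). Its sequence is not in the sources used here, and whether it matches the BALB/c allele was not tested. Class I genes of the mouse MHC are close relatives, so a probe can bind more than 1 transcript.

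Class I-like molecules include the Q, T and M genes, some of which present special peptides or none, Cd1d1, which shows lipids to NKT cells, and Mr1, which shows vitamin metabolites to MAIT cells. Of 20 probes for 17 such genes 15 were tested, 7 higher and 8 lower, and 0 passed. Cd1d1 was at 1.86 and 1.21 in Pb and 1.69, 1.58 and 1.54 in controls, so the Pb arrays lay on either side of the controls. H2-M3, which presents formylated peptides, was at 5.002 and 4.40 in Pb and 4.75, 4.87 and 4.86 in controls, again on either side. Mr1 was at -0.63 and -0.80 in Pb, within the controls at -0.21, -0.51 and -1.27. H2-Bl, listed as a transcribed pseudogene, was at 5.78 and 5.27 in Pb and 5.53, 5.69 and 5.49 in controls.

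With the main correction H2-Q8 gave opposite answers from its 2 probes. Probe 120097 was at 1.13 and 0.79 in Pb, above the controls at 0.52, 0.42 and 0.52, a difference of 0.47 (95% interval 0.03 to 0.92, limma unadjusted p = 0.041, adjusted p = 0.622). Probe 226009 was at 2.03 and 1.01 in Pb, below the controls at 2.19, 2.20 and 2.17, a difference of -0.67 (-1.44 to 0.10, limma unadjusted p = 0.076, adjusted p = 0.622). With a surface that ignores level the probes differed by -0.11 and -0.77, and without position correction by -0.77 and -0.13, so both were then lower. Without Pb replicate 1 the second probe differed by -1.21. Its deposited intensity in Pb replicate 2 was 5.8, above the controls at 5.1, 4.8 and 4.6, so its low value there arose in the correction. No direction is therefore given for H2-Q8.

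H2-Q4 was at 2.93 and 2.91 in Pb, above the controls at 2.61, 2.70 and 2.61, by 0.28 (95% interval -0.11 to 0.67, limma adjusted p = 0.623). It lies in array row 14, and its difference was -0.57 with a surface that ignores level and -1.50 without position correction. Row 14 is also in the part where all probes kept a median deviation of 0.21 in Pb replicate 2 after correction. H2-Q1 was at 2.09 in both Pb arrays, above 1.73, 2.01 and 1.81 in controls, by 0.24 (-0.18 to 0.66, limma adjusted p = 0.661). H2-T10, dim and scattered, was at -0.92 and 0.02 in Pb and -0.93, -1.08 and -2.56 in controls, a difference of 1.07 with an interval from -0.30 to 2.44.

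H2-Q10, which in the mouse encodes a secreted class I molecule made mainly by liver, was at 2.94 and -1.08 in Pb, against 2.32, 2.09 and 2.47 in controls. The Pb arrays lay above and below all controls. The deposited intensity in Pb replicate 2 was under 0 and had been raised to the floor, so that value is not a measured level. The mean difference of -1.37 (SE 1.08, limma adjusted p = 0.679) has a 95% interval from -4.00 to 1.27. Without Pb replicate 1, which leaves Pb replicate 2 as the lone Pb array, the difference was -3.33. H2-M2 was at 0.75 and -0.21 in Pb and 0.76, 0.92 and 0.52 in controls, a difference of -0.47 (SE 0.32), also from Pb replicate 2 alone.

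The class I loading group supplies, trims and inserts peptides. Of its 8 tested probes 6 were higher and 2 lower, 0 passed, and the median difference was 0.20. Of all probes tested 13168 were higher and 11296 lower. Tap1, a subunit of the transporter that brings peptides into the endoplasmic reticulum, was at 2.14 and 2.16 in Pb, above the controls at 1.78, 1.79 and 1.78. The difference was 0.37 (SE 0.16, 95% interval -0.01 to 0.75, limma unadjusted p = 0.056, adjusted p = 0.622). Its size depended on the correction, at 0.03 with a surface that ignores level and 0.54 without position correction. Tap2, the other subunit, was at 4.21 and 4.11 in Pb, below the controls at 4.26, 4.55 and 4.21 by a small margin, with a difference of -0.18 (-0.63 to 0.27, limma adjusted p = 0.747). The subunits therefore lay on opposite sides of the controls, and neither passed.

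Calr, a chaperone that holds class I heavy chains during loading and also folds many other glycoproteins, was at 4.33 and 4.27 in Pb, above the controls at 3.93, 3.85 and 3.90. The difference was 0.41 (SE 0.16, 95% interval 0.02 to 0.80, limma unadjusted p = 0.041, adjusted p = 0.622). With a surface that ignores level it was 0.14, and without position correction 1.72. Canx, the membrane-bound relative of Calr, was at 3.30 and 3.79 in Pb with its main probe, against 3.54, 3.70 and 3.69 in controls, so the Pb arrays lay on either side. Its second probe was at 0.24 and 0.71 in Pb and 0.37, -0.01 and 0.12 in controls. The probes differed by -0.10 and 0.32, with overlapping groups in both.

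Tapbp, tapasin, which bridges class I to the transporter, was at 3.21 and 2.92 in Pb and 3.04, 2.76 and 3.13 in controls. Its relative Tapbpl was at 2.70 and 3.06 in Pb and 2.47, 2.75 and 2.74 in controls. Erap1, which trims peptides to length, was at 1.95 and 2.13 in Pb, above the controls at 1.75, 1.92 and 1.93, by 0.17 (95% interval -0.25 to 0.59, limma adjusted p = 0.741), but its difference was -0.26 with a surface that ignores level and -0.25 without position correction. Nlrc5, the class I transactivator, was at 3.41 and 3.25 in Pb and at 3.06, 3.06 and 3.29 in controls, a difference of 0.19 (-0.23 to 0.62).

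H2-Ke6 carries an H2 symbol because it lies in the MHC, but it encodes a hydroxysteroid dehydrogenase and has no known part in antigen presentation. It had the lowest unadjusted p of the 43 probes. It was at 3.78 and 3.77 in Pb, above the controls at 3.16, 3.26 and 3.40, a difference of 0.50 (SE 0.17, 95% interval 0.09 to 0.92, limma unadjusted p = 0.025, adjusted p = 0.622). That difference was 0.14 with a surface that ignores level and 1.13 without position correction.

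The remaining 6 probes lay under the filter and were not tested. They were H2-M1, H2-T3, both probes of H2-Q2, and the second probes of H2-M9 and Erap1, with differences from -0.88 to 1.54. In H2-M9 the second probe was at -3.51 and -2.96 in Pb, below the controls at -2.41, -2.85 and -1.81, whereas the tested probe was at 1.01 and 0.69 in Pb and 0.51, 0.87 and 0.74 in controls.

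Other genes of the pathway were read from a list that holds no member. Of 26 measured genes 0 rose and 0 fell past the adjusted threshold, with 19 higher and 7 lower and a median difference of 0.07. Of all probes tested 13168 were higher and 11296 lower, with a median difference of 0.03. Psmb9, an immunoproteasome subunit whose gene lies back to back with Tap1, was at 3.76 and 4.32 in Pb, above the controls at 3.62, 3.46 and 3.34, by 0.57 (SE 0.23, limma unadjusted p = 0.047, adjusted p = 0.622). Psme2, of the proteasome activator PA28, differed by 0.39 and Irf1, an interferon-induced activator of class I genes, by 0.27, each with both Pb arrays above all controls and with adjusted p of 0.622 and 0.644 (limma). These 3 genes of 26 are a smaller share than the 14.0% of all probes tested with that order. Psmb9 and Irf1 lie in array rows 8 and 384. After correction, all probes had a median deviation in Pb replicate 2 of 0.21 in rows 1 to 20 and of 0.26 in rows 381 to 400. Both Pb arrays lay below all controls for 2 of the 26, also a smaller share than the 12.7% of all probes tested. They were Cd86, a costimulatory ligand of antigen-presenting cells, and Hspa5, a chaperone of the endoplasmic reticulum, with differences of -0.28 and -0.12. Irf8, a transcription factor of B cells and dendritic cells, was at 3.08 and 2.06 in Pb and 3.12, 3.07 and 3.08 in controls. The X box factors Rfx5, Rfxap and Rfxank differed by 0.33, 0.32 and 0.01, with overlapping groups. Rfx5 and Rfxap lie in rows 371 and 364, and the median of all probes in rows 361 to 380 was 0.26 in Pb replicate 2.

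Members were measured about as tightly as other probes. The median SD over the 3 controls was 0.14 for members and 0.16 for all probes tested. The median gap between both Pb arrays was 0.31 for members and 0.37 for all probes, and between pairs of controls it was 0.15 to 0.16 for members and 0.18 to 0.20 for all probes. The differences named above for Cd74, Tap1, Calr and H2-Ke6, of 0.31 to 0.50, lay at or above the median gap of 0.31 between both Pb arrays. A gap between single arrays is not the spread of a difference of means, for which the limma SE was 0.16 to 0.18 in these genes. In these 4 genes the Pb arrays themselves lay at most 0.063 apart, and none of the 4 passed the adjusted threshold.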

How the data were processed

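Spleen RNA of 3 Pb and 3 control mice was hybridised to 1 array each. The deposited values are linear probe intensities with array medians of 0.972 to 0.987. How the authors corrected background and normalised is not stated in the sources used here. Probes were named from the platform annotation (21615 with 1 symbol, 681 with several, 13291 not listed). All 42 member genes were found in the RefSeq table of GRCm38.p6 by entrez identifier, with the same symbols.

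Array rows 402 to 409 (638 probes) and Pb replicate 3 were left out. Non-positive values, 151 to 711 in an array, were set to that array's 1st percentile of positive ones before log2 was taken. Each array was then set against the average of 4 arrays (Pb replicate 1 and the controls), and a smooth surface of the deviation was subtracted, 2 times over (mgcv 1.9.3, tensor products of row with level and row with column, 40, 6 and 8 basis functions). limma 3.58.1 in R 4.3.3 compared the groups, two-sided. Correction and fit were also run on simulated data. Their position surface did not depend on level, and their changes were larger than any member difference. That run therefore cannot show how level-dependent position effects or small differences are handled. Alternatives numbered 17. The spread is that between samples labelled as separate animals.

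Members, marker lists, arrays and correction were chosen with earlier results of these data known. The genes named are the class II chains, Cd74, the transactivators, classical class I, Tap1, Tap2, Tapbp and Erap1, the 4 members with the smallest p in each direction, those whose groups do not overlap and those with several probes. Of other lists, up to 4 genes with the smallest p were to be named; the X box factors, Cd86, Hspa5, the exocrine list and further members were added after values were seen.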

Additional observations from a re-analysis of the deposited data

How the results depend on the processing

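The 43 tested probes gave 727 comparisons with other settings. In 724 the call was the same, namely none, in 3 a call was gained and in 0 one was lost; 98 differences changed sign, none of them with a call. Every gained call came without Pb replicate 1, which leaves 1 Pb array. H2-Ob, H2-Q10 and the H2-Q8 probe 226009 then differed by -1.41, -3.33 and -1.21. The share of all probes called lower in that setting is given above with H2-Ob. With any other array left out, the number of member probes called stayed 0. The 15 probes called in all became 0 without position correction, 0 without the filter, 0 in the 6 arrays as deposited, 7 with array weights, 7 with the replicate block and 2 to 2899 with 1 array left out. With 1 Pb array left, its spread is taken from the controls. The median difference of members, 0.06, became -0.85 without position correction, -0.33 with a surface that ignores level, 0.0066 with scaling to the 75th percentile, 0.017 with quantile normalization, -1.09 in the 6 arrays as deposited, 0.11 with the replicate block and -0.063 to 0.19 with 1 array left out. For class II, -0.02, it became -0.36, -0.25 and -1.32 without position correction, with the surface that ignores level and in the 6 arrays, and -0.20 to 0.13 with 1 array left out. For class I, 0.08, it became -0.95, -0.34 and -1.08 in the same settings, 0.045 with 15 basis functions, 0.026 and 0.034 with the 2 scalings, 0.16 with the replicate block and 0.055 to 0.21 with 1 array left out. The 13 members with groups that do not overlap (26.5%, against 24.9% of all probes) became 20 without position correction (40.8%, against 37.2%). They became 10 with a surface that ignores level (20.4%, against 30.2%), where 3 lay above and 7 below. With 1 array left out they became 14 to 34 (28.6% to 69.4%, against 35.2% to 66.0%). No label ties equal replicate numbers to a shared litter or batch. Pb and control arrays of equal number deviated from their groups with r = 0.06 and 0.01, so the numbers are not taken to pair the animals. With the replicate block 0 members were called. Without Pb replicate 2, 1 surface stopped before it converged. The causes of these shifts were not tested. Low signal in Pb replicate 2, though not in the other arrays, limits H2-Q10 and H2-Ob. Low signal across the arrays limits the 6 probes under the filter.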
